A study of Mus musculus with 6 samples.

Results

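Translation initiation and elongation factors are the proteins that place a ribosome on the start codon of an mRNA and carry it along the coding sequence. Their genes were chosen by symbol: probe sets whose symbol in the array's annotation begins with Eif1 to Eif6, Eef1 or Eef2, without Eif2s3x and Eif2s3y. This gave 150 probe sets of 56 genes, out of 45037 probe sets and 18193 named genes on the array. A further 8 probe sets carry several symbols, at least 1 of which begins this way, and were left out of the counts. In 3 of them all the symbols do (Eif3j1 and Eif3j2). RNA came from mouse thymocytes described as double negative, meaning without CD4 and CD8, and as sorted by flow cytometry. The source name and the sample titles speak of whole thymus instead. The titles also call the RNA amplified mRNA. Of the 6 single-colour arrays, 3 are labelled Egr1/Egr3 double knockout and 3 wild type. The sample titles number them 1 to 3 in each group, and do not say whether 1 animal or a pool gave each array. Egr1 and Egr3 encode zinc finger transcription factors induced by pre-T cell receptor signals. The labels give no strain, age or sex. The comparison asks how transcript levels in these samples differ between the 2 genotypes.

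Initiation starts when eIF2, loaded with GTP, brings the initiator tRNA to the small ribosomal subunit together with eIF1, eIF1A, eIF3 and eIF5. eIF2B recharges eIF2 with GTP, and kinases that phosphorylate eIF2 block that step under stress. eIF4E binds the mRNA cap as part of eIF4F, where the helicase eIF4A unwinds the leader, and binding proteins under control of the mTOR kinase hold eIF4E back. During elongation eEF1A delivers aminoacyl-tRNA, eEF1B recharges eEF1A, and eEF2 moves the ribosome on. Thymocytes that pass the pre-T cell receptor checkpoint grow and divide, which requires protein synthesis.

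Values are the authors' deposited intensities, scaled to a trimmed mean of 150 on each array, in arbitrary units. A change is the difference in mean log2(intensity + 16), arrays labelled double knockout minus arrays labelled wild type, after centring each array on its median. It was tested with limma over 27022 probe sets and counted as a rise or fall at a Benjamini-Hochberg adjusted p under 0.05. SE is the moderated standard error. The number of arrays, 3 in each group, limits the precision of every value. The brightest of 27 control probe sets for bacterial genes read 19.0, 24.3 and 25.6 on the arrays labelled double knockout and 25.7, 20.1 and 29.9 on the wild type arrays, which gives an upper level for a probe set without a target.

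The labels could not be checked through the targeted genes. Egr1 signal was 1757, 1696 and 1221 in the arrays labelled double knockout and 508, 509 and 455 in wild type, so it was higher by 1.60 on the log2 scale (SE 0.24, limma adjusted p = 0.00312), and both Egr3 probe sets overlapped between the groups. Whether these probe sets cover the deleted sequence is not stated in the labels. Groups are therefore called by their labels throughout. Wild type replicate 1 read both the X-linked Xist (1439, against 3910 to 6015 on the arrays labelled double knockout and 3977 and 5311 on the other wild type arrays) and the Y-linked Kdm5d (144, against 10.3 to 29.5 and at most 8.81 on those same arrays). Whether it holds RNA of 1 animal only was not tested. It also had the highest ratios of 3′ to 5′ control signal for actin (8.94, against 4.98 to 6.35 on the arrays labelled double knockout and at most 5.64 on the other wild type arrays) and for Gapdh (10.1, against 4.95 to 8.56 and at most 7.36).

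Of 8 marker lists of cell types, 3 had summed levels without overlap between the groups, those of double negative thymocytes, NK and cytotoxic cells and B cells. The summed intensity of 7 double negative thymocyte markers (Ptcra, Il2ra, Cd3e, Cd3d, Thy1, Rag1 and Dntt) was 20025 to 23495 on the arrays labelled double knockout and 31758 to 38110 on the wild type arrays. Of these, Cd3e, Cd3d and Rag1 overlapped between the groups. The sum of 4 NK and cytotoxic cell markers was 2096 to 3772 against 382 to 620, and Prf1 was the one that overlapped. The 8 granulocyte markers summed to 18391 to 27582 on the arrays labelled double knockout, and to 11397, 24713 and 304 on wild type replicates 1, 2 and 3. The 3 erythroid markers summed to 284 to 364 against 294, 38.5 and 3228. The 3 B cell markers summed to 1981 to 2216 against 829 to 1435, through Cd79b (1782, 1922 and 1816 against 571, 959 and 1081), while Cd79a (31.2, 19.5 and 29.1 against 72.4, 54.1 and 24.9) and Ms4a1 overlapped. The 5 macrophage and dendritic cell markers summed to 3452 to 3917 against 2218 to 6523, and the 3 stromal markers to 909 to 2933 against 294 to 1798. The 3 CD4 and CD8 genes summed to 152 to 210 against 169 to 299. Cd4 and the stromal Col1a1 lay at or under the brightest bacterial control on the 6 arrays. The part of these cell type differences in the changes below was not tested, and fewer cells of a type cannot be told apart from less RNA per cell in such samples.

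Among the translation factors, transcripts of 5 genes fell and that of 1 gene rose in the arrays labelled double knockout. The falls were those of the cap-binding protein gene Eif4e, the eIF5A gene Eif5a, the eIF3 subunit gene Eif3b, the eIF1A gene Eif1a and Eef1e1, and the rise was that of Eif2ak3, which encodes the eIF2 kinase PERK. Each gene is represented here by its brightest tested probe set. With 55 of the 56 genes tested, 9.09% fell, where the background over 13187 tested genes was 2.54%, and 1.82% rose, where it was 3.72%, with 6.26% called in either direction. At the level of probe sets, 8 of 129 tested fell and 3 rose, 1 of them a dim Eif3l probe set described below (6.20% and 2.33%, against a background of 2.11% and 2.91%, or 5.03% in either direction). At an unadjusted p under 0.05, 11 genes were lower (20.0%, background 9.84%) and 1 was higher (1.82%, background 11.1%). The groups did not overlap in 17 genes, of which 13 had the arrays labelled double knockout lower (23.6%, background 12.8%) and 4 were higher (7.27%, background 13.4%). Among the 4 higher is Eif2ak2, which entered the test only through the group where it was high.

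Most members of the family did not pass the threshold, which does not show that their differences were small. The median log2 change of the 55 genes was -0.09, beside -0.01 over all tested genes. In such a median rises and falls offset each other. The median SE of the 55 genes was 0.24. The median log2 value of the 55 genes was 10.12, 9.96 and 10.17 on the arrays labelled double knockout, and 10.22, 10.50 and 10.56 on the wild type arrays. The same median over all tested genes was 7.19, 7.08 and 7.17 against 7.06, 7.22 and 6.98. The medians of the translation factors did not overlap between the groups. The 12 genes with a wild type mean above 5000 included Eif5a as the only one called. The other 11 had changes between -0.66 and 0.41, with confidence intervals (95%) that reached from -1.26 to 0.88.

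The counts depended on the arrays used. Without double knockout replicate 1 or 2, none of the translation factor genes was called lower, without double knockout replicate 3 or wild type replicate 1 or 2 it was 1 gene each time, and without wild type replicate 3 it was 5. Over all genes the calls in either direction were 825 with 6 arrays, 235, 387 and 428 without double knockout replicates 1, 2 and 3, and 448, 448 and 1636 without wild type replicates 1, 2 and 3. Eif2ak3 was called in each of these 6 fits.

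**Figure D1:**
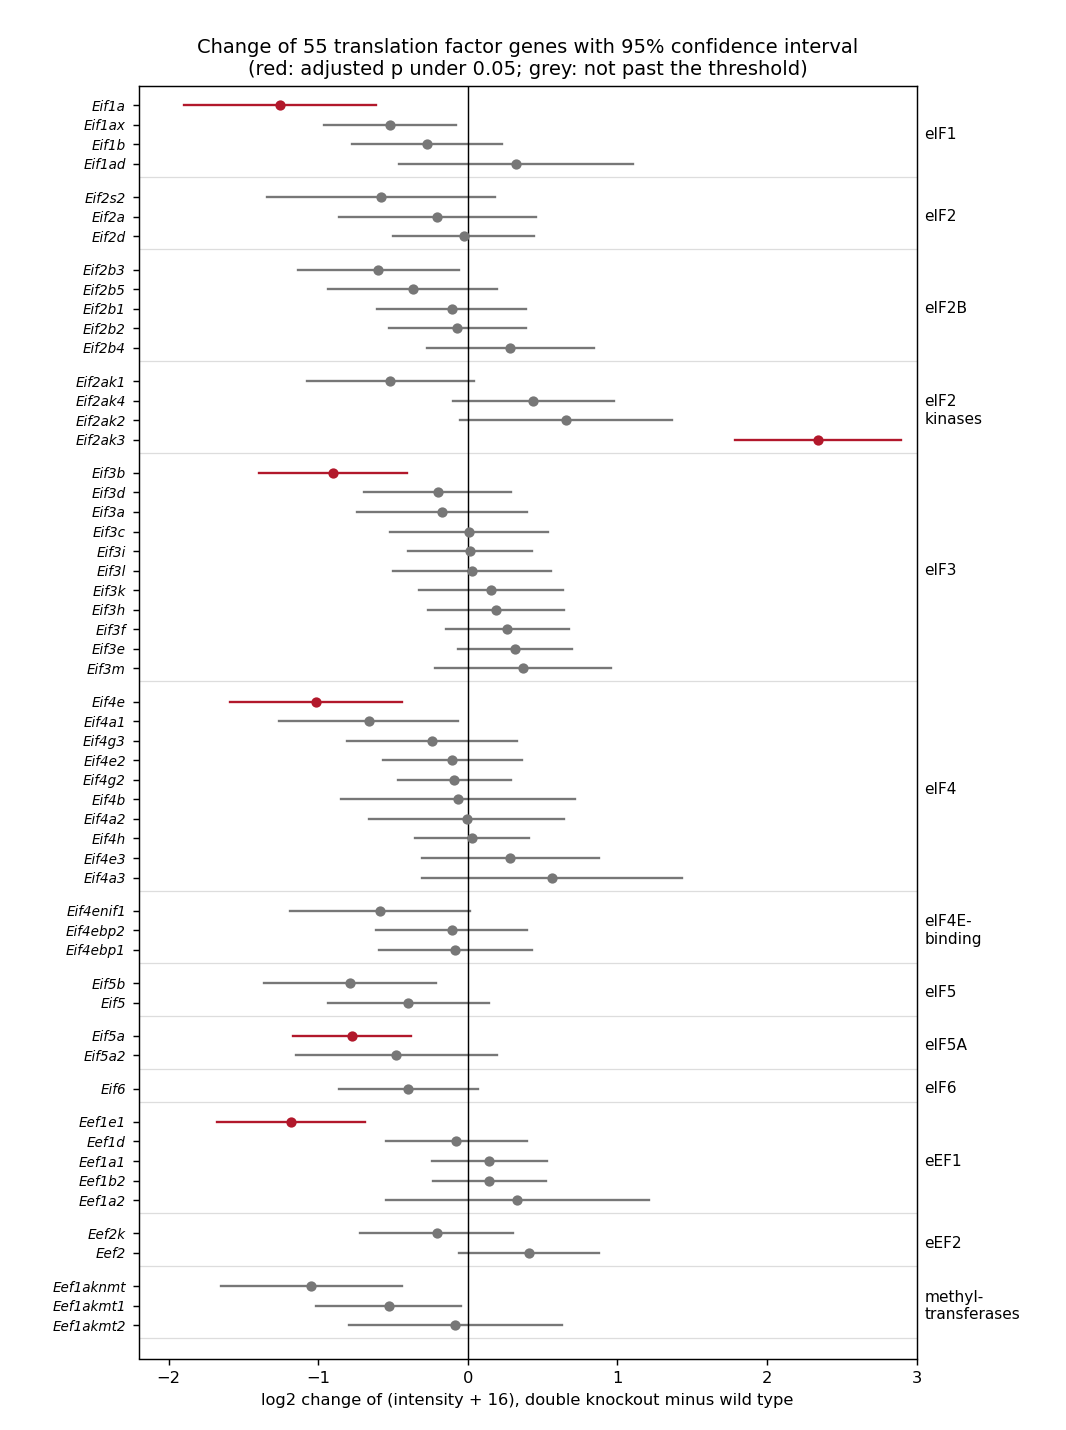
Log2 change of (intensity + 16), arrays labelled double knockout minus wild type, of the 55 tested translation factor genes by factor group. Points are the brightest probe set of each gene, lines are 95% confidence intervals (n = 3 and 3), and red marks the 6 genes past the threshold, of which Eif2ak3 at 2.34 lies apart from the others.

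The largest change of the family was in the kinases that phosphorylate eIF2. Eif2ak3 encodes PERK, the kinase of the endoplasmic reticulum membrane that responds to unfolded proteins. It read 1075, 1352 and 957 on the arrays labelled double knockout and 185, 252 and 185 on the wild type arrays. Each array labelled double knockout lay above each wild type array, and the means were 1128 ± 203 and 207 ± 38.9 (SD, n = 3 each). This was a rise of 2.34 on the log2 scale (SE 0.25, limma adjusted p = 0.000451), which is 5.06-fold. It remained past the threshold without any 1 of the 6 arrays. The median change of this and a second tested probe set was 1.57. The median of their 2 limma adjusted p values was 0.0821, which is not a test of that median change. That second probe set was dim, at 32.5, 59.1 and 31.7 against 25.6, 16.1 and 7.26, and its change of 0.81 (SE 0.30) did not pass.

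The other 3 kinases did not pass. Eif2ak4, the GCN2 kinase that senses uncharged tRNA, read 187, 175 and 178 on the arrays labelled double knockout and 154, 133 and 99.3 on the wild type arrays. These groups did not overlap, and the change was 0.44 (SE 0.25, adjusted p = 0.38). Eif2ak1, the haem-regulated kinase HRI, read 119, 88.1 and 131 against 185, 173 and 138. This kinase pointed the other way, again without overlap, at -0.52 (SE 0.26, adjusted p = 0.306). Eif2ak2, the double-stranded RNA sensor PKR, was near the level of the bacterial controls, at 27.0, 24.3 and 36.8 against 17.7, 20.2 and 2.45. Its wild type mean log2 value lay under the intensity filter, so it was tested only through the group where it was high.

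No tested gene of the eIF2 group or of the exchange factor eIF2B passed. Of the subunits of eIF2 itself, Eif2s2 alone was among the members. Eif2s2, the beta subunit of eIF2, read 1006, 728 and 1334 on the arrays labelled double knockout and 2468, 1403 and 923 on the wild type arrays. The groups overlapped, with wild type replicate 1 highest, and the change was -0.58 (SE 0.35, adjusted p = 0.413). Its 5 dimmer probe sets gave between -0.44 and 0.07. Eif2a, a factor outside the eIF2 complex that can bring initiator tRNA without GTP, had a change of -0.20 (SE 0.30), and Eif2d, which acts on small subunits after termination, one of -0.03 (SE 0.21, 95% interval -0.50 to 0.44). None of the 5 eIF2B subunits passed. Their changes ran from -0.60 for Eif2b3 (SE 0.25, adjusted p = 0.21) over -0.37 for Eif2b5, the catalytic subunit, to 0.28 for Eif2b4, with a median of -0.11. Eif2b3, the gamma subunit, was the one without overlap, at 126, 106 and 136 against 162, 201 and 212.

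The eIF1A gene Eif1a was lower. eIF1A binds the decoding site of the small subunit and helps it scan to the start codon. Eif1a read 214, 256 and 145 on the arrays labelled double knockout and 710, 433 and 389 on the wild type arrays, where replicate 1 stood above the other two. Its means were 205 ± 56.3 and 511 ± 174 (SD, n = 3 each), a fall of 1.25 on the log2 scale (SE 0.29, limma adjusted p = 0.0319). The second probe set also had groups without overlap, at 140, 195 and 165 against 293, 250 and 345, but with -0.79 (SE 0.24, adjusted p = 0.0872) it did not pass. A dim probe set that Eif1a shares with Gm4027 and BB287469 read 26.3, 26.1 and 50.7 against 22.3, 15.9 and 22.1. It was higher without overlap at 0.43 (SE 0.28, adjusted p = 0.447) and did not pass, with the wild type arrays under the brightest bacterial control. The call was lost without any 1 of the 3 arrays labelled double knockout and without wild type replicate 1 or 2, where the adjusted p was between 0.0596 and 0.130.

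Eif1ax, the brighter X-linked gene for the same factor, pointed the same way without passing. It read 3288, 3550 and 2937 on the arrays labelled double knockout and 5120, 3667 and 5209 on the wild type arrays, a change of -0.52 (SE 0.20, adjusted p = 0.183). The groups did not overlap, though wild type replicate 2 lay close to the double knockout range. A dimmer Eif1ax probe set gave -0.69 (SE 0.25, adjusted p = 0.15), also without overlap. The dimmest gave -0.46 (SE 0.29, adjusted p = 0.44), with overlap. Eif1a and Eif1ax products are near-identical, and the brighter Eif1a probe set is of a kind marked as reading several transcripts. Eif1b, a copy of the eIF1 gene, had a change of -0.27 (SE 0.23). Eif1ad, which encodes a protein with an eIF1A domain, had 0.32 (SE 0.36), and its second probe set -0.62 (SE 0.28).

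Within eIF3, the scaffold of 40S loading, 1 of 11 tested subunit genes fell and none rose. Eif3b encodes a core subunit of eIF3. It read 1001, 815 and 998 on the arrays labelled double knockout and 1576, 1858 and 1787 on the wild type arrays, with a clear gap between the groups. The means were 938 ± 107 and 1740 ± 146 (SD, n = 3 each), a fall of 0.90 on the log2 scale (SE 0.23, limma adjusted p = 0.0424). This lay near the threshold, and the call was lost without any 1 of the arrays labelled double knockout and without wild type replicate 1 or 2 (adjusted p between 0.0621 and 0.162).

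The other 10 eIF3 genes had changes between -0.20 and 0.37, and 8 of the 10 were above 0. Their confidence intervals reached from -0.74 to 0.96. Eif3e, the subunit that touches eIF4G in mammals, read 8794, 8973 and 9092 on the arrays labelled double knockout and 8016, 5875 and 7619 on the wild type arrays. It was higher without overlap, at 0.31 (SE 0.17, adjusted p = 0.374), and its other tested probe sets gave 0.43 (SE 0.19, adjusted p = 0.23) and, with overlap, 0.11 (SE 0.19, adjusted p = 0.817). Eif3f, the brightest eIF3 gene, read 16138, 17051 and 15558 against 12693, 10612 and 17652, a change of 0.26 (SE 0.19). Eif3m, which helps to hold the octamer core together, had 0.37 (SE 0.27). Eif3l had 0.03 (SE 0.24) on its main probe set. A dim Eif3l probe set read 27.9, 29.1 and 35.4 against 3.25, 1.61 and 7.83, and passed (1.20, SE 0.28, adjusted p = 0.0307), with the wild type arrays under the brightest bacterial control. Its wild type mean lay under the intensity filter, so it entered the test only through the group where it was high, and its call is no support for a rise. It did not pass without wild type replicate 1 or 2 (adjusted p of 0.0879 and 0.0925), and without any 1 of the arrays labelled double knockout it fell under the intensity filter. Eif3a, the largest eIF3 subunit, had -0.17 (SE 0.26), and its second probe set -0.64 (SE 0.24), neither past the threshold. The median of the 11 genes was 0.03, and it ran from -0.03 to 0.17 over the fits that leave out 1 array, below 0 without double knockout replicate 1 or 3. The 3 probe sets that carry both Eif3j symbols, for the eIF3j subunit, had changes of -0.62, -0.57 and -0.55 and did not pass (adjusted p between 0.16 and 0.295). The brightest of these read 945, 924 and 942 on the arrays labelled double knockout and 1798, 1285 and 1255 on the wild type arrays, without overlap.

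**Figure D2:**
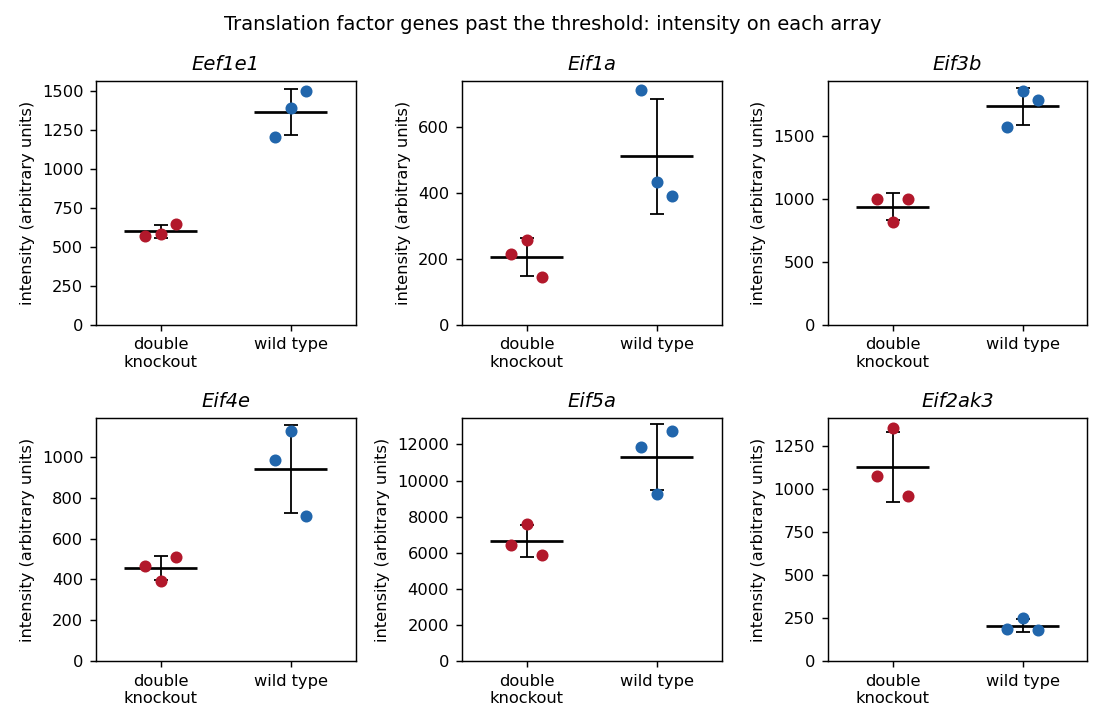
Intensity (arbitrary units, axes from 0) of the 6 translation factor genes past the threshold, on each of the 3 arrays labelled double knockout (red, left) and the 3 wild type arrays (blue, right). Horizontal lines are means and bars are SD. In none of the 6 genes do the groups overlap, and Eif2ak3 alone is higher in the arrays labelled double knockout.

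In the eIF4 group, the cap-binding protein gene Eif4e fell, while the other members had changes on both sides of 0. Eif4e read 466, 395 and 510 on the arrays labelled double knockout and 983, 1126 and 708 on the wild type arrays. No array of one group reached the other, and the means were 457 ± 58.2 and 939 ± 212 (SD, n = 3 each). The fall was 1.01 on the log2 scale (SE 0.26, limma adjusted p = 0.0479), which is 2.02-fold. A second Eif4e probe set read 189, 180 and 222 against 790, 571 and 364, and fell by 1.43 (SE 0.29, adjusted p = 0.0178). Another read 39.2, 42.5 and 38.8 against 112, 83.8 and 97.2, and fell by 1.03 (SE 0.23, adjusted p = 0.0235). These 3 probe sets moved alike, and the fourth lay at or under the brightest bacterial control on the 6 arrays (0.06, SE 0.26). The call of the brightest was lost without any 1 of the arrays labelled double knockout and without wild type replicate 1 or 2, with an adjusted p between 0.1 and 0.185. The same 5 omissions ended the call of this last one (0.0543 to 0.120), and all of them except double knockout replicate 3 that of the second (0.0620 to 0.0985). Over the 6 fits that leave out 1 array the change of the brightest stayed between -1.21 and -0.84.

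The partners of eIF4E did not pass. Eif4a1, the main eIF4A helicase, read 4288, 6079 and 3483 on the arrays labelled double knockout and 6163, 5281 and 10681 on the wild type arrays, where replicate 3 was highest. The change was -0.66 (SE 0.27, adjusted p = 0.213), while its other probe sets gave 0.24 (SE 0.48) and 0.13 (SE 0.39). The second helicase gene Eif4a2 had -0.01 (SE 0.30), and the helicase cofactors Eif4b and Eif4h had -0.07 (SE 0.36) and 0.03 (SE 0.17). The dimmer Eif4b probe sets were lower without overlap, at -0.40 (SE 0.23, adjusted p = 0.397) and -0.83 (SE 0.29, adjusted p = 0.133), and did not pass. Eif4a3, the related helicase of the exon junction complex, was dim on the probe set that names it alone, at 4.25, 40.5 and 26.0 against 20.6, 4.38 and 3.32. The wild type mean log2 value of that probe set lay under the intensity filter. A bright probe set that Eif4a3 shares with the predicted gene Gm5576 read 3635, 3461 and 3833 against 4018, 4948 and 4940, lower without overlap at -0.36 (SE 0.20, adjusted p = 0.369), and did not pass. Eif4g3, a scaffold protein, had -0.24 (SE 0.26), and Eif4g2, an eIF4G-like protein without the cap-binding partner site, -0.09 (SE 0.17). The median of the 10 genes of the eIF4 group was -0.08, and 0.03 with array weights.

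Of the cap-binding relatives, Eif4e2, which competes for the cap without supporting eIF4F, had -0.10 (SE 0.21). Eif4e3 gave 2 different answers. Its brighter probe set by mean log2 value read 505, 818 and 438 on the arrays labelled double knockout and 428, 413 and 537 on the wild type arrays, with overlap, at 0.28 (SE 0.27, adjusted p = 0.643). Its other probe set read 785, 1317 and 536 against 224, 300 and 388, and rose by 1.40 (SE 0.33, adjusted p = 0.0319), a call lost without double knockout replicate 1 or 2 or wild type replicate 1 or 2 (adjusted p between 0.0996 and 0.138). In both probe sets replicate 2 was the highest of the arrays labelled double knockout.

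The genes that hold eIF4E back had changes of -0.08 to -0.59 and none passed. Eif4ebp1 read 706, 613 and 841 on the arrays labelled double knockout and 765, 751 and 727 on the wild type arrays, a change of -0.08 (SE 0.23, 95% interval -0.59 to 0.43). Eif4ebp2 read 140, 128 and 137 against 163, 144 and 130, at -0.11 (SE 0.23). Dimmer tested probe sets reached -0.34 for Eif4ebp1 and -0.55 for Eif4ebp2. The median of the 7 tested probe sets of this group was -0.34, and none of them passed. Eif4enif1, which carries eIF4E into the nucleus, read 184, 133 and 192 against 275, 315 and 196, and was lower without overlap at -0.59 (SE 0.28, adjusted p = 0.281). The ratio of binding protein to eIF4E cannot be read from these values, since intensities of different probe sets are not on a common scale.

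The promoters of the falling genes are shown for Eif4e and Eif5a, the falling genes that carry the sequence CACGTG in a promoter window. CACGTG is the E-box bound by MYC and MAX, and reads the same on both strands. The sequences are from RefSeq, build GRCm38.p6, 5′ to 3′ along the gene, and CACGTG is in capitals. Eif4e has 2 promoter windows, of which 1 holds CACGTG. For this window (chr3:138527018-138527267, plus strand) the stretch ends at the base before the annotated start, with matches 228 and 64 bases before it. For Eif5a (chr11:69921395-69921520, minus strand) it ends 9 bases before 1 of several annotated starts, with a match 74 bases before it.
Eif4e: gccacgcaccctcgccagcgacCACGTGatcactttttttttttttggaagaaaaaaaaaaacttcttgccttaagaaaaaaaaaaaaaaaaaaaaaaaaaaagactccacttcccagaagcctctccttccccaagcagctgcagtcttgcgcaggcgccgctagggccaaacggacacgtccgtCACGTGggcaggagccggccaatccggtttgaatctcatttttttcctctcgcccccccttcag
Eif5a: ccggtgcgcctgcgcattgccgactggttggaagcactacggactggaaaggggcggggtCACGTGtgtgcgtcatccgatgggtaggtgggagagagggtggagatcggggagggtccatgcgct

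RefSeq windows of 300 bases around annotated starts matched 45 of the 56 genes. CACGTG was in a window of 12 of them (26.7%), against 11.1% of 10645 tested genes and 8.09% of all 27025 genes in the table. Besides Eif4e and Eif5a these were Eif1b, Eif3a, Eif3f, Eif3k, Eif4a1, Eif4h, Eif5a2, Eef2, Eef2k and Eef1aknmt, none of which passed the test. No CACGTG was found in the windows of Eif3b or Eef1e1, and Eif1a was not among the matched genes. The EGR family motifs were searched on both strands and counted separately. GCGTGGGCG was in a window of 0 of the 45 genes (1.37% of tested genes), and GCGGGGGCG in 1, Eef2k (2.22%, against 5.78% of tested genes). A match is a description of these windows only.

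Of the factors that act at and after the joining of the large subunit, Eif5a fell. eIF5A carries the modified lysine hypusine and helps ribosomes past sequences at which peptide bonds form slowly. It read 6461, 7614 and 5909 on the arrays labelled double knockout and 11880, 9264 and 12752 on the wild type arrays. The groups were apart, with means of 6661 ± 870 and 11299 ± 1816 (SD, n = 3 each), and the fall was 0.77 on the log2 scale (SE 0.18, limma adjusted p = 0.0318). Its second probe set read 842, 1098 and 645 against 1654, 1877 and 2824, and fell by 1.29 (SE 0.27, adjusted p = 0.0197). Both probe sets are of kinds marked as reading several sequences. The call of the brighter one was lost without any 1 of the arrays labelled double knockout or wild type replicate 1 (adjusted p between 0.0558 and 0.159), and that of the other without double knockout replicate 1 or 3 or wild type replicate 2 (between 0.0708 and 0.103).

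Eif5a2, the second eIF5A gene, was dim, at 20.1, 30.3 and 31.8 on the arrays labelled double knockout and 77.4, 37.0 and 25.9 on the wild type arrays, with a change of -0.48 (SE 0.31). Eif5b, the GTPase that joins the subunits, read 63.2, 53.2 and 93.7 against 159, 105 and 125, and did not pass at -0.79 (SE 0.26, adjusted p = 0.117), though its groups did not overlap. Eif5, which triggers GTP hydrolysis by eIF2, read 2219, 2125 and 2367 against 4266, 2459 and 2353. The groups overlapped, with wild type replicate 1 again highest, and the change was -0.40 (SE 0.25). Its other probe sets gave between -0.40 and 0.12. Eif6, which keeps the large subunit from joining too early and takes part in its assembly, read 2369, 1836 and 2415 against 2799, 2780 and 2996. It was lower without overlap at -0.40 (SE 0.21, adjusted p = 0.35).

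The elongation factors proper did not pass, and Eef1e1, grouped with them by name, fell. The Eef1e1 product, also known as AIMP3, is a subunit of the complex of aminoacyl-tRNA synthetases. It read 571, 581 and 650 on the arrays labelled double knockout and 1205, 1395 and 1503 on the wild type arrays. Arrays within each group lay close together, with means of 601 ± 43.3 and 1368 ± 151 (SD, n = 3 each). The fall was 1.18 on the log2 scale (SE 0.23, limma adjusted p = 0.012), which is 2.27-fold and the lowest p among the falls of the family's representative probe sets. The call was lost without double knockout replicate 1 (adjusted p = 0.0976), double knockout replicate 2 (0.0536) or wild type replicate 2 (0.0562).

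Eef1a1, the main eEF1A gene, read 18178, 20556 and 17379 on the arrays labelled double knockout and 16139, 13627 and 21169 on the wild type arrays. Wild type arrays lay on both sides of the others, and the change was 0.14 (SE 0.18, 95% interval -0.24 to 0.53). Eef1b2, the exchange factor subunit, read 10543, 10106 and 10929 against 9495, 8006 and 10930, also a change of 0.14 (SE 0.17). Eef1d, another exchange subunit, had -0.08 (SE 0.22), and its dimmest tested probe set -1.0 (SE 0.33, adjusted p = 0.114). Eef1a2, the eEF1A gene of muscle and neurons, had 0.33 (SE 0.40) and read 76.0, 61.7 and 71.7 against 15.6, 73.7 and 91.2. Eef2 read 11523, 7693 and 11773 against 6750, 7962 and 7972, and had a change of 0.41 (SE 0.22, adjusted p = 0.341) with overlap. Eef2k, the kinase that switches eEF2 off, had -0.21 (SE 0.23) on its brightest probe set, and 0.77 (SE 0.26, adjusted p = 0.128) on its dimmest.

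Of the methyltransferases that modify elongation factors, none of 3 tested passed. Eef1aknmt, which methylates eEF1A, came nearest, at 20.9, 40.2 and 27.3 on the arrays labelled double knockout and 56.1, 69.6 and 108 on the wild type arrays. The groups did not overlap and the change was -1.05 (SE 0.28, adjusted p = 0.0524). Its other probe sets, at or near the bacterial controls, gave 0.03 and -0.12. Eef1akmt1 had -0.53 (SE 0.22, adjusted p = 0.221) and Eef1akmt2 -0.08 (SE 0.33). Eef2kmt, the eEF2 methyltransferase, was left out of the test by the intensity filter, with readings of 6.32, 9.48 and 4.06 against 24.8, 6.99 and 8.83.

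Of 34 genes with at least 2 tested probe sets, the calls differed within 5, which were Eif1a, Eif2ak3, Eif3l, Eif4e and Eif4e3. In Eif1a, Eif2ak3 and Eif4e the probe set that was not called was dimmer than the called ones. In Eif3l the called one was the dimmest, and in Eif4e3 the 2 probe sets were of similar level. The 21 probe sets that the filter left out lay at or under the brightest bacterial control on 6 arrays (15 of them) or on 5 arrays (6 of them).

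**Figure D3:**
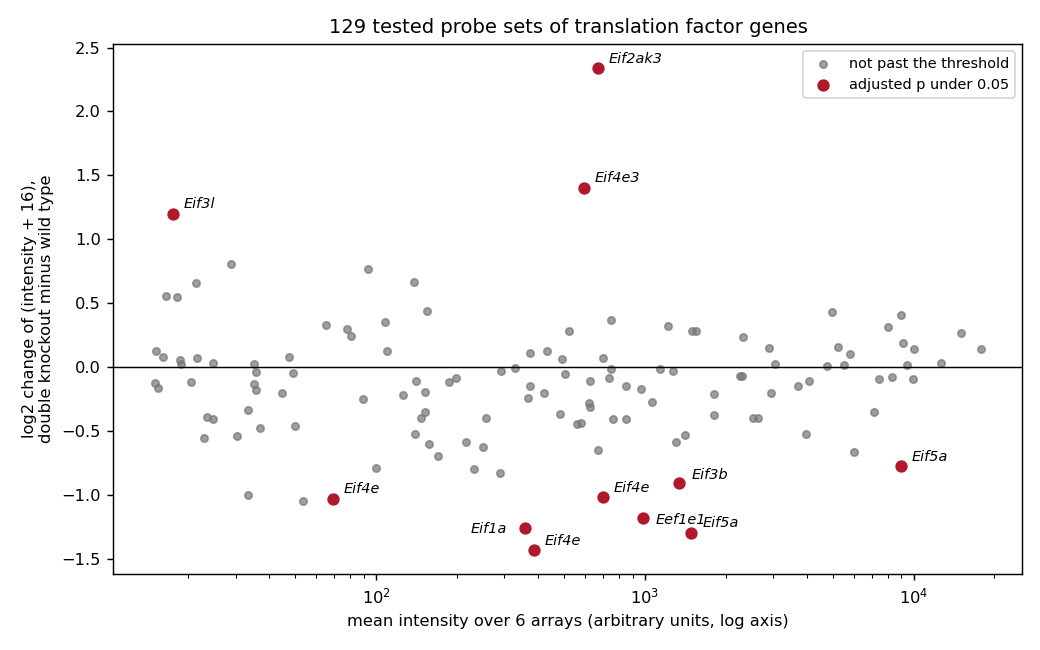
Log2 change of (intensity + 16), arrays labelled double knockout minus wild type, against mean intensity over 6 arrays (log axis) for the 129 tested probe sets of translation factor genes. Red points passed the threshold, 8 below 0 and 3 above, and the named genes can have more than 1 point.

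Regulators and partners of these factors were examined as a list of other genes of translation control. Of 48 tested, 1 fell and 2 rose (2.08% and 4.17%, against a background of 2.54% and 3.72%), so the called shares were near those of all genes. The groups did not overlap in 15 of the 48 with the arrays labelled double knockout lower, and in 5 with them higher (background 12.8% and 13.4%). The median change was -0.17, beside -0.01 over all tested genes. Pdcd4, which binds eIF4A and blocks its helicase activity, read 4472, 4741 and 3590 on the arrays labelled double knockout and 1764, 1641 and 1553 on the wild type arrays. With means of 4268 ± 602 and 1653 ± 106 (SD, n = 3 each) it rose by 1.33 on the log2 scale (SE 0.21, limma adjusted p = 0.00377). Without double knockout replicate 1 the adjusted p was 0.0511.

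Deptor encodes an inhibitor that binds the mTOR kinase. It read 243, 249 and 230 on the arrays labelled double knockout and 104, 67.2 and 101 on the wild type arrays, with no overlap. The rise was 1.27 (SE 0.24, limma adjusted p = 0.0113), and 2 of its 4 dimmer tested probe sets also rose, by 1.40 (adjusted p = 0.00864) and 1.22 (adjusted p = 0.0336). Another (1.24, adjusted p = 0.0358) had a wild type mean under the intensity filter, so it was tested only through the group where it was high. Its brightest probe set did not pass without double knockout replicate 1 (adjusted p = 0.0828) or wild type replicate 2 (0.0539). Of the 10 tested genes around mTORC1 it was the only one called. The kinase gene Mtor had -0.22 and its activator Rheb 0.40, and neither passed.

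Abce1, the ATPase that splits ribosomes after termination, was the gene that fell. It read 200, 220 and 202 on the arrays labelled double knockout and 428, 429 and 422 on the wild type arrays. Within each group the 3 arrays agreed closely, and the fall was 1.01 (SE 0.23, limma adjusted p = 0.0264). Its second probe set read 97.1, 92.6 and 82.1 against 237, 248 and 312, and fell by 1.41 (SE 0.24, adjusted p = 0.00612). The call of the brighter one was lost without any 1 array except wild type replicate 3 (adjusted p between 0.0553 and 0.156).

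Among genes of termination, Gspt1 and Etf1, the release factors, had -0.98 and -0.70 without overlap and did not pass.

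Of the rest of this list, Ncbp2, a subunit of the nuclear cap-binding complex, had -0.79 (SE 0.22, adjusted p = 0.06), while its other probe sets gave -0.06 and -0.17. Pabpc4, a poly(A)-binding protein, had -0.71 (SE 0.22, adjusted p = 0.0981) and -0.87 (SE 0.23, adjusted p = 0.0546) on its 2 probe sets. Mtif3, an initiation factor of mitochondria, had 0.83 (SE 0.24, adjusted p = 0.0754), at 257, 254 and 256 on the arrays labelled double knockout against 142, 156 and 112. In the subgroup of 13 cap and poly(A) partners the groups did not overlap downwards in 6 genes and upwards in 1, Pdcd4, where the background share was 12.8% and 13.4%. Paip1, in this subgroup, had -0.16 (SE 0.23). A dim Paip1 probe set read 9.14, 9.27 and 6.60 against 35.1, 42.4 and 84.2, and passed (-1.48, SE 0.30, adjusted p = 0.0169). Its mean on the arrays labelled double knockout lay under the intensity filter, so it was tested only through the group where it was high. Another Paip1 probe set gave 0.15 (SE 0.49). None of 8 genes of eIF2 dephosphorylation and stress control passed, nor the 2 hypusine enzyme genes. Atf4, the transcription factor translated when eIF2 is phosphorylated, had a change of 0.07 (SE 0.22).

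**Figure D4:**
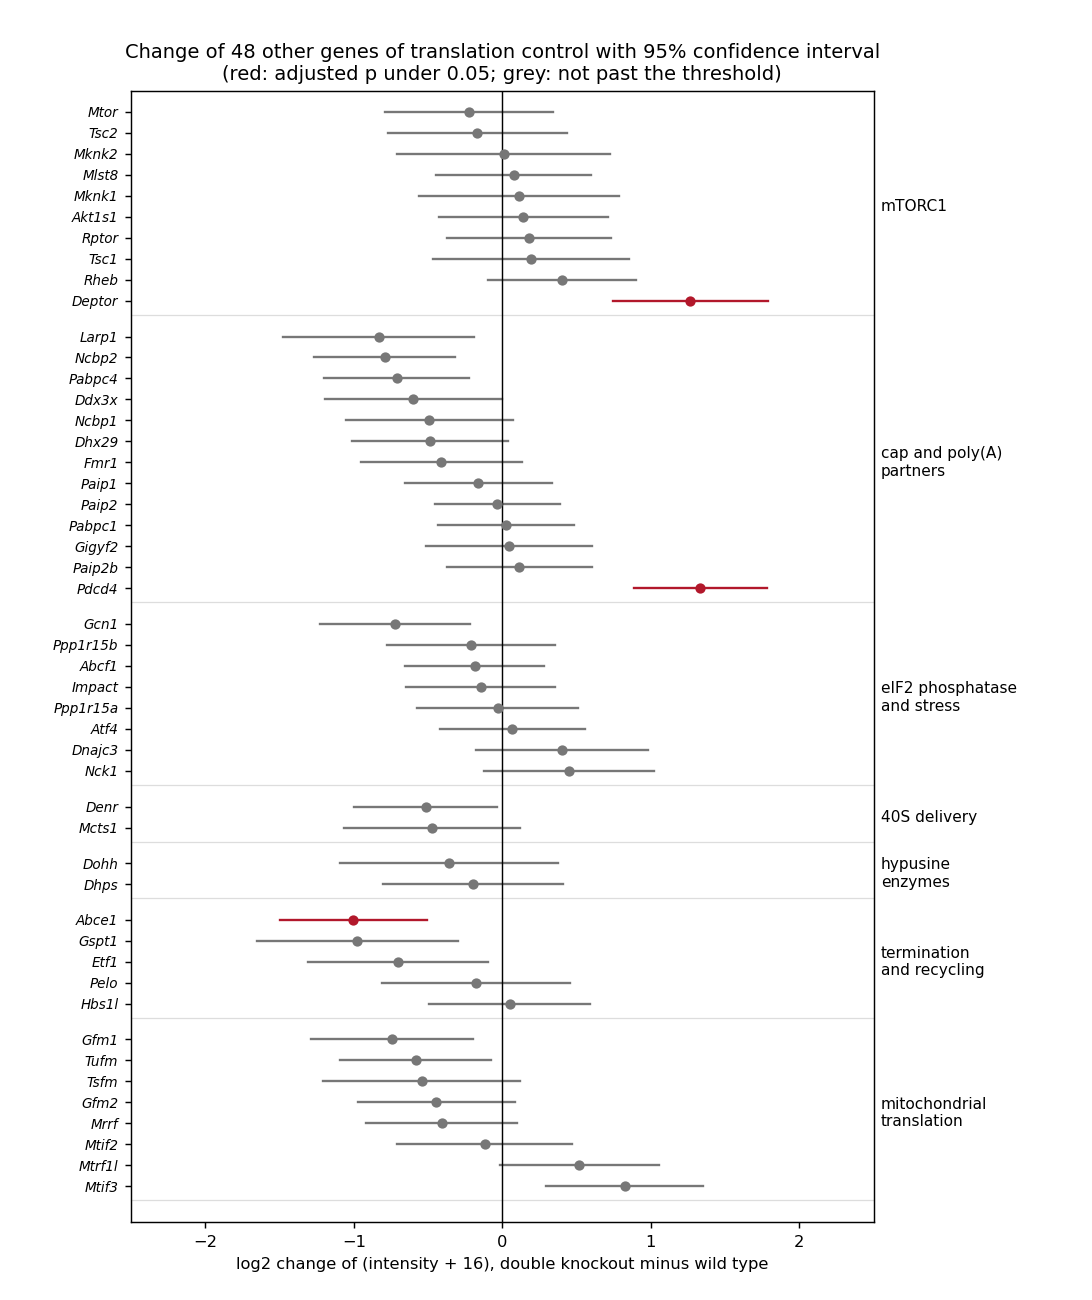
Log2 change of (intensity + 16), arrays labelled double knockout minus wild type, of 48 other genes of translation control by subgroup. Points are the brightest probe set of each gene, lines are 95% confidence intervals (n = 3 and 3), and red marks Deptor, Pdcd4 and Abce1, the 3 genes past the threshold.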

How the data were processed

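The authors deposited 1 intensity for each probe set and array, on a linear scale, with no array file. The mean of the middle 96% of values is 150 on each array, from the values. No source used here names the software behind these values. Probe sets were named through the platform annotation, with 34945 of 45037 carrying 1 symbol, 932 several and 9160 none. After adding 16 and taking log2, arrays were centred on their medians, which spanned 0.13. Dim probe sets were removed by their mean log2 value, at the 40th percentile of all (intensity 13.2). limma 3.58.1 (lmFit, eBayes with intensity trend, R 4.3.3) tested arrays labelled double knockout minus wild type, two-sided, with Benjamini-Hochberg adjustment over 27022 probe sets. The fit was tested on simulated data. A gene was represented by its brightest tested probe set. Overlap between groups was judged on the centred log2 values.

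Named genes were those past the threshold, up to 3 further genes of smallest p in a factor group, and genes whose probe sets disagreed. Genes beyond this rule were added for their roles. The members and lists were chosen with earlier results of these data known. Replicate numbers were not used to pair arrays in the main fit. Deviations from the group means correlated at -0.05, -0.13 and -0.29 in same-numbered arrays, and at -0.19 to 0.25 in the other pairs. With deviations from means of 3 arrays, these values cannot settle whether same-numbered arrays belong together. Alternatives covered centring, quantile normalization, the offset, the filter, the trend, array weights, a replicate block, each array left out, the choice of probe set and the adjustment.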

Additional observations from a re-analysis of the deposited data

How the results depend on the processing

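Of the translation factor genes, 5 were lower in the main analysis, 3 with an offset of 1, 2 without the filter, 2 without the intensity trend and 3 when probe sets of the _x_at and _s_at kinds were left out. With those kinds left out, Eif5a had no tested probe set and so could not be called, and Eif1a did not pass. The count of higher genes was 1, and 0 with the median of a gene's probe sets. In that setting the median of a gene's adjusted p values was set against the threshold, which is not a test of the median change. Of the probe sets, 8 were lower, against 4 without the filter and 5 without the trend, and 3 were higher, against 5 with array weights. Of the other genes of translation control, 1 was lower, against 2 with a filter at the 60th percentile, 7 with array weights and 2 with adjustment over genes. The eIF2 kinases include Eif2ak2, which entered the test only through the group where it was high. Their median change was 0.55, against 0.31 with an offset of 1 and 0.30 with an offset of 64. The cause of these shifts was not tested.

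With the replicate number as a block, 0 translation factor genes and 0 probe sets were lower and 1 probe set was higher. Of the other genes of translation control, 0 were lower and 1 was higher with the block. Eif2ak3 passed with it (adjusted p = 0.00351).

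Leaving out each array in turn gave 0 to 5 translation factor genes lower and 1 to 2 higher, and 0 to 8 probe sets lower and 1 to 3 higher. It gave 0 to 6 other genes of translation control lower and 0 to 2 higher. Median changes ran from -0.24 to 0.24 for eEF1, from 0.14 to 0.68 for the eIF2 kinases and from -0.75 to -0.052 for the eIF4E-binding genes. Signs over the alternatives were followed only for the genes and member probe sets past the threshold, not for the other named genes. None of these changes reversed its sign under any alternative. Medians of factor groups did: eEF1 without wild type replicate 1 (-0.24), eIF3 without double knockout replicate 1 (-0.01) or 3 (-0.03), and eIF4 with array weights (0.03). The balance of translation factor gene calls turned too, with more higher than lower without double knockout replicate 1 or 2 and with the replicate block. Signal near the bacterial controls limits what can be said of Eif2ak2, Eef2kmt and the Eif4a3 probe set that names it alone.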
